A study of Mus musculus with 4 samples.

Results

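CCR4-NOT is the large cytoplasmic complex that shortens the poly(A) tails of mRNAs, and the genes described here encode its scaffold and nuclease subunits. The members were the rows of the deposited count table whose symbol was Cnot1, Cnot2, Cnot3, Cnot9, Cnot10 or Cnot11 (6 scaffold or structural subunits) or Cnot6, Cnot6l, Cnot7 or Cnot8 (4 catalytic subunits). All 10 were found, of 25265 genes in the table, and all 10 passed the filter on low counts. The samples were whole testes of C57BL/6 mice at postnatal day 56, as 2 libraries of the genotype control and 2 of the genotype Ythdf2-vKO, made from total RNA after depletion of ribosomal RNA. The series title speaks of a germ cell-specific mutation of Ythdf2. The Cre line or promoter, the deleted segment and the alleles of the controls are not given in the sources used here, nor are the animals behind each library. P-values therefore measure the spread between these libraries, which may be technical.

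CNOT1 is the backbone on which the other subunits assemble. CNOT2 and CNOT3 form a heterodimer at its C-terminal end, CNOT9 binds its middle part and offers docking surfaces to RNA-binding proteins, and CNOT10 with CNOT11 occupies its N-terminal part. The nuclease activity comes from 2 paralog pairs. CNOT7 and CNOT8 bind CNOT1 directly, and CNOT6 and CNOT6L are tethered through CNOT7 or CNOT8, so that a complex is thought to carry a nuclease of each kind. YTHDF2, a reader of N6-methyladenosine (m6A) in mRNA, brings the complex to its targets through CNOT1. In the testis the complex is known for serving NANOS2 in male germ cells, and mice without Cnot7 are known for defects of spermatogenesis.

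Of the members, 8 had an entry among the RefSeq promoter windows of build GRCm38.p6, and Cnot1 and Cnot7 had none. The bases before the annotated start are shown for 3 scaffold genes whose windows differ from each other in their motifs. Capitals mark matches on either strand to the GC box GGGCGG, the CCAAT box CCAAT and the ETS motif CCGGAAG, and bases in exons of the GENCODE M21 annotation were left out. The windows are chr7:3645019-3645267 on the plus strand for Cnot3, chr1:74505810-74506057 on the plus strand for Cnot9 and chr9:114640201-114640450 on the minus strand for Cnot10.
Cnot3: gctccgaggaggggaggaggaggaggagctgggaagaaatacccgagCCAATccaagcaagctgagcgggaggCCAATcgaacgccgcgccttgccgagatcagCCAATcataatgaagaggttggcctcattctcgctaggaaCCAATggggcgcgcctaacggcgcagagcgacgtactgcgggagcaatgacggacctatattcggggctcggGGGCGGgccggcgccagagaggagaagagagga
Cnot9: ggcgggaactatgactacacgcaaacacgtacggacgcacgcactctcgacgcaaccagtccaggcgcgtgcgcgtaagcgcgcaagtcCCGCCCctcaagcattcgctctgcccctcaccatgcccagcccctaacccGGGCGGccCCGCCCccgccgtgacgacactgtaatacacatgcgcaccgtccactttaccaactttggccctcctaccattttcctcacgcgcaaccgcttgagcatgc
Cnot10: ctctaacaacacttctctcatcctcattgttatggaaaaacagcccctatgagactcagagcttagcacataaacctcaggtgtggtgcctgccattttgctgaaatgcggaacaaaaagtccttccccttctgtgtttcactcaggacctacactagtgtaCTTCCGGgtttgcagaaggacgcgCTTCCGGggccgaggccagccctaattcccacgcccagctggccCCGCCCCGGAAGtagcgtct
The Cnot3 window held 4 CCAAT boxes and 1 GC box. At least 1 CCAAT box was present in 33.8% of 32851 windows of 250 bases over all genes, and at least 4 in 0.84%. The Cnot9 window held 3 GC boxes, a number reached by 8.47% of windows, against 32.7% with at least 1. The Cnot11 window also held 3, and 1 of the Cnot6l windows held 4. The Cnot9 window had 63.6% GC, against a median of 52.4% over all windows. The Cnot10 window held 3 ETS motifs, 1 of which overlaps its GC box, and 0.1% of windows held as many, against 6.91% with at least 1. The NRF1 motif (in 0.782% of windows) and the cAMP response element TGACGTCA (in 1.55%) had no match in the windows of the 8 members. These motifs were picked for display after the windows were read, and a match is a string of letters in a window, not evidence of binding.

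Total counts per library lay between 24862518 and 29561182. Ythdf2 itself, with 1193 and 1604 counts in control libraries against 1774 and 1807 in vKO-labelled ones, was not lower in the latter (log2 fold change 0.35, SE 0.13, adjusted p 0.238). Whole-gene counts do not show whether reads came from a deleted exon. The counts therefore do not show the mutation named in the label. The libraries are called vKO-labelled, and every direction is relative to control. Markers of spermatogonia, spermatocytes, spermatids, Sertoli cells and Leydig cells were all detected, and none of the 4 epididymis genes had enough counts to be tested. Transcript GC content also moved with the libraries: across genes, Spearman's rho between GC content and the deviation from the gene's mean was 0.0169 and -0.401 in the controls and 0.257 and 0.194 in the vKO-labelled libraries, which is why values with a GC offset are given beside the results. The 10 Sertoli cell genes were at higher values in the vKO-labelled libraries in 10 of 10 cases, beside 50.3% of all genes tested, with summed levels of 874 to 953 CPM in control libraries against 1107 to 1265 CPM in vKO-labelled ones. The 10 elongating spermatid genes were at lower values in 9 cases, with sums of 13351 to 16325 CPM and 12746 to 13098 CPM. Higher values were also found for 10 of 10 spermatogonia genes (sums of 151 to 154 CPM and 167 to 189 CPM), 7 of 7 Leydig cell genes (258 to 314 CPM and 312 to 432 CPM) and 4 of 4 erythrocyte genes (26.7 to 32.3 CPM and 38.96 to 41.95 CPM). They were found for 2 of 10 spermatocyte genes, 5 of 10 round spermatid genes, 2 of 5 peritubular myoid genes, 5 of 6 macrophage genes and 4 of 5 endothelial genes. In whole testis, fewer cells of a type and less RNA per cell cannot be told apart, and the part of these shifts in the values below was not tested.

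Scaled to transcript length, Cnot1 was the most abundant member and Cnot6l the least. Levels are given here as CPM, counts scaled to library size, per kilobase of the longest coding transcript. Cnot1 (ENSMUSG00000036550, minus strand of chromosome 8, 95719451 to 95807464 in GRCm38) averaged 70.9 ± 11.5 CPM per kilobase (SD over 4 libraries). This was above 91.2% of the 15851 protein-coding genes that passed the filter on low counts. The structural subunits Cnot10 at 35.6 ± 2.13 and Cnot2 at 29.4 ± 2.92 CPM per kilobase followed, and next came the nuclease Cnot7 at 25.5 ± 1.44. A lower tier held Cnot9 at 13.5 ± 1.22, Cnot6 at 11.3 ± 0.403, Cnot8 at 10.3 ± 1.25, Cnot3 at 9.73 ± 2.04 and Cnot11 at 7.51 ± 1.33 CPM per kilobase. Cnot6l stood last at 1.83 ± 0.098 CPM per kilobase, above 30.4% of the coding genes that passed the filter. In this order the ranges of Cnot2 and Cnot7 overlapped over the 4 libraries, as did those of Cnot6 and Cnot8, of Cnot8 and Cnot3, and of Cnot3 and Cnot11, while the other neighbours did not overlap. Dividing by the union of all annotated exons instead lowered Cnot1 to 34.6, Cnot10 to 15.3, Cnot7 to 13.1 and Cnot3 to 3.85 CPM per kilobase, put Cnot2 (20.2) before Cnot10, and put Cnot11 (7.45) before Cnot3.

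**Figure D1:**
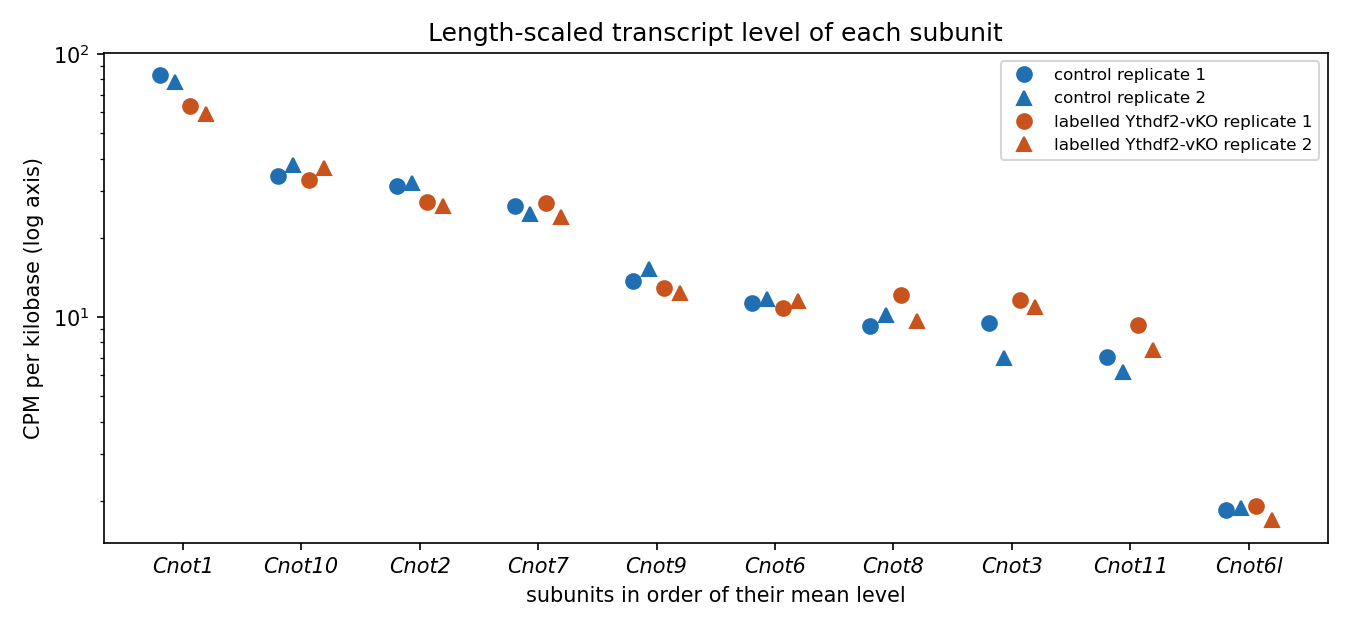
Length-scaled level of each subunit in every library (CPM per kilobase of the longest coding transcript, log axis), ordered by the mean; each point is a library, blue for control and orange for labelled vKO. Cnot1 lies between 59.0 and 83.0 CPM per kilobase, and Cnot6l between 1.68 and 1.90.

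Within each nuclease pair the same paralog led in all 4 libraries. Cnot7 and Cnot8 encode the CAF1-type nucleases, and Cnot8 made up 25.9% and 29.3% of their summed length-scaled level in control libraries against 30.9% and 28.7% in vKO-labelled ones. Cnot6 and Cnot6l encode the CCR4-type nucleases, and Cnot6l made up 14.0% and 13.8% of their sum in control libraries against 14.99% and 12.8% in vKO-labelled ones. The groups overlapped for both shares. Summed over the class, the 6 scaffold genes stood at 179.1 and 176.6 CPM per kilobase in control libraries against 157.6 and 153.03 in vKO-labelled ones. The 4 catalytic genes stood at 48.8 and 48.5 in control libraries against 51.8 and 46.8 in vKO-labelled ones. The ratio of the sums was 3.67 and 3.64 in control libraries against 3.04 and 3.27 in vKO-labelled ones. Cnot1 alone held 36.4% and 34.7% of the summed level of all 10 members in control, and 30.2% and 29.5% in the vKO-labelled libraries.

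By edgeR's quasi-likelihood test between the genotypes, 0 members reached the 0.05 threshold after Benjamini-Hochberg adjustment, against 0.393% of the 21132 genes tested (83 genes). At an unadjusted p under 0.05 there were 3 members (Cnot1 lower, Cnot3 and Cnot11 higher in the vKO-labelled libraries), against 14.1% of all genes, 7.65% higher and 6.47% lower. The authors' deposited table also has 0 members with an adjusted p under 0.05, against 1.32% of the 16448 genes it gives one for. The CPM of the groups did not overlap in 5 of the 6 scaffold genes and in 0 of the 4 catalytic genes, against 45.3% of all genes tested. Over both classes this was 5 of 10 members, near that share of all genes. Of the 10 members, 3 were lower and 2 higher without overlap in the vKO-labelled libraries. Among all genes tested, 22.6% were lower and 22.7% higher without overlap. The split between the classes was not tested. With the fit corrected for transcript GC content the scaffold and catalytic counts were 5 and 1, and with library totals as the scaling 4 and 0.

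**Figure D2:**
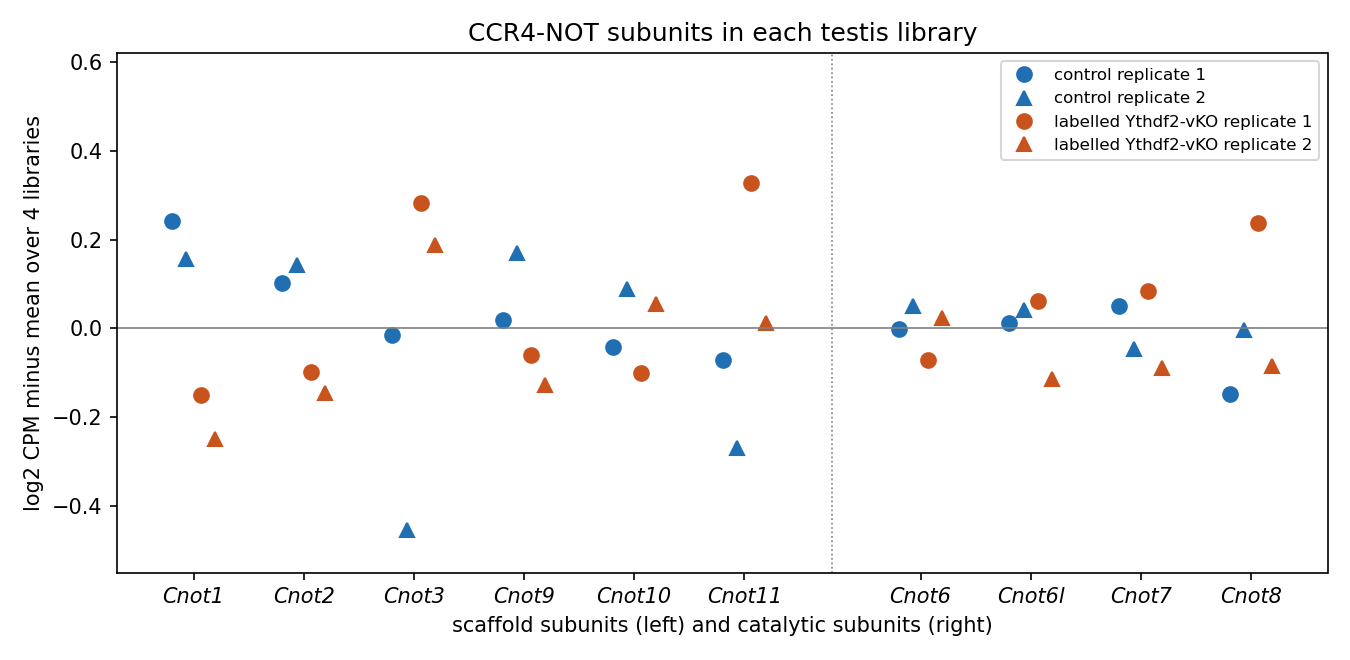
Each point is a library's log2 CPM minus that gene's mean over the 4 libraries, for scaffold genes (left) and catalytic genes (right), blue for control and orange for labelled vKO. The groups separate for Cnot1, Cnot2, Cnot3, Cnot9 and Cnot11, with Cnot3 lowest in control replicate 2 at -0.45, and overlap for Cnot10 and the 4 catalytic genes.

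The backbone gene Cnot1 was the member with the smallest p. Its counts were 16278 and 19669 in control libraries against 14210 and 13356 in vKO-labelled ones, which gave 696.4 and 656.07 CPM against 530.8 and 495.1 CPM. Both control libraries lay above both labelled vKO libraries. The level in the vKO-labelled libraries was 0.759 of that in control, a log2 fold change of -0.40 (SE 0.12, 95% confidence interval -0.65 to -0.15), with an unadjusted p of 0.00454 and an adjusted p of 0.162 by edgeR. In the authors' deposited table the log2 fold change of Cnot1 was -0.40 (SE 0.13, adjusted p 0.114). Leaving out control replicate 1 or control replicate 2 gave edgeR adjusted p values of 0.0192 and 0.00307 for Cnot1, and leaving out replicate 1 or 2 of the vKO-labelled libraries gave 0.748 and 0.633; the lone library left in a group is then assumed to vary like the other group. The antisense gene 4930513N10Rik shares 132 nt of exon with Cnot1 and had 1690, 1656, 1680 and 1698 counts in the same order of libraries. The pseudogene Gm6158 is 99.8% identical to Cnot1 over 903 nt and had 63 counts over all 4 libraries.

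Cnot2 and Cnot3, whose products pair at the C-terminal end of CNOT1, had log2 fold changes of opposite sign. Cnot2 (ENSMUSG00000020166, minus strand of chromosome 10, 116485161 to 116581511) had 88.0 and 90.5 CPM in control libraries against 76.5 and 74.1 CPM in vKO-labelled ones. Its groups did not overlap, with lower values in the vKO-labelled libraries and a log2 fold change of -0.24 (SE 0.12, interval -0.51 to 0.02, adjusted p 0.397). Cnot3 (ENSMUSG00000035632, plus strand of chromosome 7, 3645268 to 3661109), the gene with the CCAAT boxes above, had 624 and 590 counts in control libraries against 877 and 828 in vKO-labelled ones. This was 26.7 and 19.7 CPM against 32.8 and 30.7 CPM, and control replicate 2 was the lowest. The log2 fold change of Cnot3 was 0.46 (SE 0.16, interval 0.10 to 0.81), at an unadjusted p of 0.0155 and an adjusted p of 0.235 by edgeR. Without control replicate 1 it was 0.68 at an adjusted p of 0.00364, and without control replicate 2 it was 0.25 at an adjusted p of 0.475. With the GC offset the log2 fold change of Cnot3 was 0.31, and its transcript, at 57.3% GC, is the richest in GC of the 10. Leng1, on the opposite strand, shares 433 nt of exon with Cnot3, and the use of strand in the counting is not stated. Leng1 had 411 and 482 counts in control libraries against 526 and 524 in vKO-labelled ones (log2 fold change 0.22, adjusted p 0.576).

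The adaptor-docking subunit gene Cnot9 (ENSMUSG00000026174, plus strand of chromosome 1, 74506058 to 74530842) had 44.6 and 49.5 CPM in control libraries against 42.2 and 40.3 CPM in vKO-labelled ones. The groups did not overlap, and its log2 fold change of -0.19 (SE 0.13, interval -0.48 to 0.10) had an adjusted p of 0.573. Without control replicate 2 it was -0.11, and without control replicate 1 it was -0.27. Cnot9 shares 134 nt of exon with Usp37 on the other strand. Usp37 had 142.5 and 147.1 CPM in control libraries against 124.7 and 134.1 CPM in vKO-labelled ones. Its log2 fold change was -0.16 (edgeR adjusted p 0.597), the same sign as that of Cnot9.

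Of the N-terminal module genes, Cnot11 was separated between the groups and Cnot10 was not. Cnot10 (ENSMUSG00000056167, minus strand of chromosome 9, 114585878 to 114640184) had 98.3 and 107.7 CPM in control libraries against 94.5 and 105.2 CPM in vKO-labelled ones, so the groups overlapped. Its log2 fold change was -0.05 (SE 0.13, interval -0.32 to 0.23, adjusted p 0.92), and its sign turned without control replicate 2 (0.0237), without vKO-labelled replicate 1 (0.0303) and with library totals alone (0.0182). Cnot11 (ENSMUSG00000003135, plus strand of chromosome 1, 39534992 to 39546889) had 575 and 643 counts in control libraries against 868 and 703 in vKO-labelled ones, or 24.6 and 21.4 CPM against 32.4 and 26.1 CPM. Replicate 1 of the vKO-labelled libraries was the highest. The log2 fold change of Cnot11 was 0.35 (SE 0.16, interval 0.01 to 0.69), at an unadjusted p of 0.0466 and an adjusted p of 0.343. Its log2 fold change ran from 0.18 to 0.49 over the fits that each left out a library.

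Among the nuclease genes, Cnot7 (ENSMUSG00000031601, minus strand of chromosome 8, 40492540 to 40515847) encodes a CAF1-type enzyme and had 78.8 and 73.6 CPM in control libraries against 80.7 and 71.5 CPM in vKO-labelled ones, and its log2 fold change was -0.0015 (SE 0.13, interval -0.28 to 0.28, adjusted p 0.997). Cnot8 (ENSMUSG00000020515, plus strand of chromosome 11, 58104153 to 58118594) had 19.4 and 21.4 CPM in control libraries against 25.3 and 20.2 CPM in vKO-labelled ones, with replicate 1 of the latter the highest. Its log2 fold change was 0.16 (SE 0.16, interval -0.19 to 0.51, adjusted p 0.724).

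Cnot6 (ENSMUSG00000020362, minus strand of chromosome 11, 49671503 to 49712723) had 64.9 and 67.2 CPM in control libraries against 61.9 and 66.1 CPM in vKO-labelled ones, and its log2 fold change was -0.05 (SE 0.13, interval -0.32 to 0.23, adjusted p 0.917). Cnot6l (ENSMUSG00000034724, minus strand of chromosome 5, 96070333 to 96164171), the least counted member, had 368 and 482 counts in control libraries against 436 and 389 in vKO-labelled ones. Its log2 fold change was -0.05 (SE 0.16, interval -0.40 to 0.29, adjusted p 0.929). The groups overlapped for each of the 4 nuclease genes. The intervals leave room for a difference of up to 0.51 on the log2 scale in Cnot8. The signs of Cnot6, Cnot6l and Cnot7 turned positive with the GC offset (0.05, 0.05 and 0.09) and with library totals alone (0.02, 0.01 and 0.07). The transcripts of these 3 genes are the poorest in GC of the 10, at 39.8%, 37.6% and 40.7%.

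**Figure D3:**
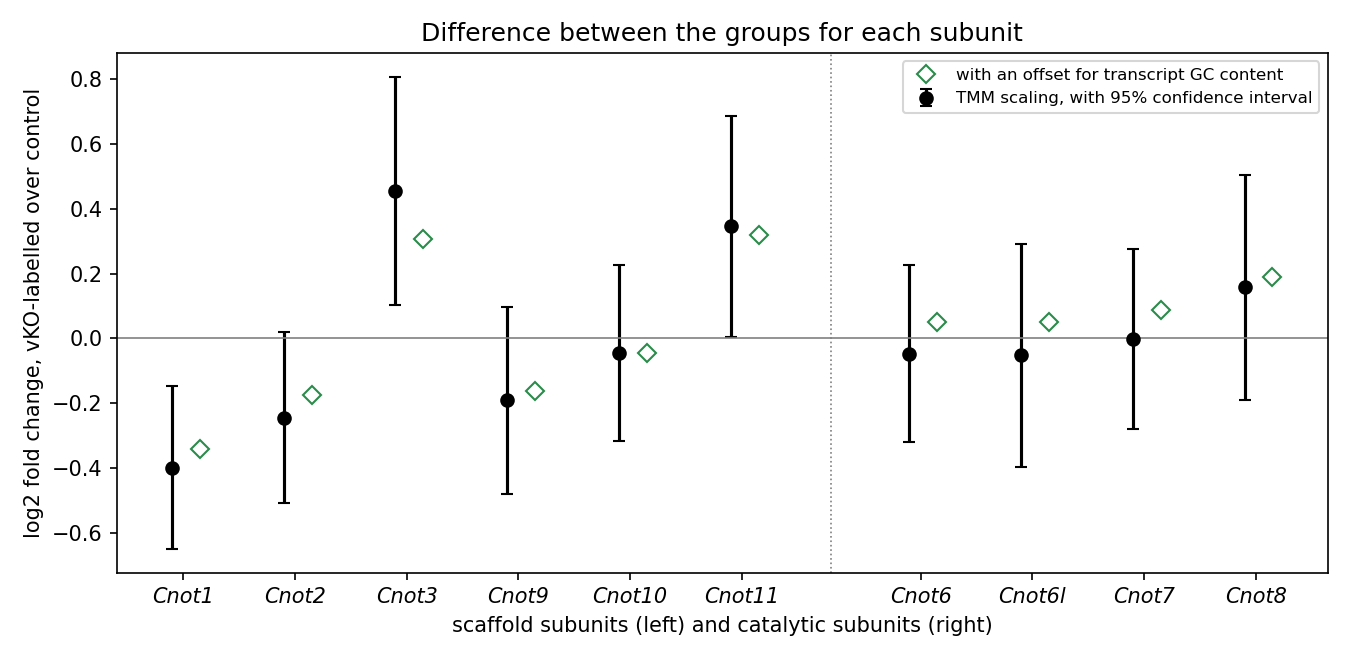
The log2 fold change of each subunit, labelled vKO over control; black points show the fit with TMM scaling and its 95% confidence interval, and open diamonds the value with an offset for transcript GC content. Intervals of Cnot1, Cnot3 and Cnot11 lie to one side of 0, none of which passed the adjusted threshold, and the GC offset moves Cnot3 from 0.46 to 0.31.

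The comparison of the classes depended on how the subunits were summarised. The mean log2 CPM of the scaffold genes minus that of the catalytic genes was 1.08 and 0.98 in control libraries against 0.98 and 1.04 in vKO-labelled ones. The group means, 1.03 ± 0.0699 and 1.01 ± 0.0469 (SD, n = 2), differed by -0.02, less than the spread within groups (pooled SD 0.0595). With the median over the subunits the difference was -0.27, and without Cnot1 it was 0.05. Without control replicate 1 it was 0.03, and leaving out vKO-labelled replicate 1 gave 0.0095. The median log2 fold change was -0.12 over the 6 scaffold genes (2 above 0, range -0.40 to 0.46) and -0.02 over the 4 catalytic genes (1 above 0, range -0.05 to 0.16), beside 0.0027 over all genes tested. With the GC offset the medians were -0.10 and 0.07, with 4 of 4 catalytic genes above 0, and with library totals alone -0.06 and 0.04. Scaffold genes thus lay on both sides of the catalytic genes.

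Ratios between subunits within a library do not depend on the scaling between libraries, and 5 pairs were compared by an exact two-sided permutation test, whose smallest possible p with 2 libraries against 2 is 0.333. The log2 ratio of Cnot3 to Cnot2 counts was -1.72 and -2.20 in control libraries and -1.22 and -1.27 in the vKO-labelled libraries. The groups did not overlap and differed by 0.71, at that smallest p (exact p 0.333, adjusted over the pairs 0.833). The log2 ratio of Cnot1 to Cnot3 counts was 4.71 and 5.06 in control libraries against 4.02 and 4.01 in vKO-labelled ones, a difference of -0.87, again without overlap (exact p 0.333, adjusted 0.833). Without control replicate 2 these differences were 0.47 and -0.69. With the GC offset the fitted log2 fold changes of the single genes were 0.31 for Cnot3, -0.17 for Cnot2 and -0.34 for Cnot1. Cnot10 over Cnot11 differed by -0.39 with overlapping groups (exact p 0.667, adjusted 0.833), and Cnot7 over Cnot8 by -0.16 (exact p 0.667, adjusted 0.833). Leaving out 1 library at a time moved Cnot10 over Cnot11 between -0.62 (without vKO-labelled replicate 2) and -0.15 (without vKO-labelled replicate 1). The same moved Cnot7 over Cnot8 between -0.28 (without control replicate 2) and -0.0348 (without control replicate 1). With the GC offset the fitted log2 fold changes were 0.09 for Cnot7 and 0.19 for Cnot8. Cnot6l over Cnot6 had log2 ratios of -2.04 and -2.06 in control libraries and -1.93 and -2.20 in the vKO-labelled libraries, a difference of -0.0070 (exact p 1), which ran from -0.14 to 0.13 when vKO-labelled replicate 1 or 2 was left out.

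**Figure D4:**
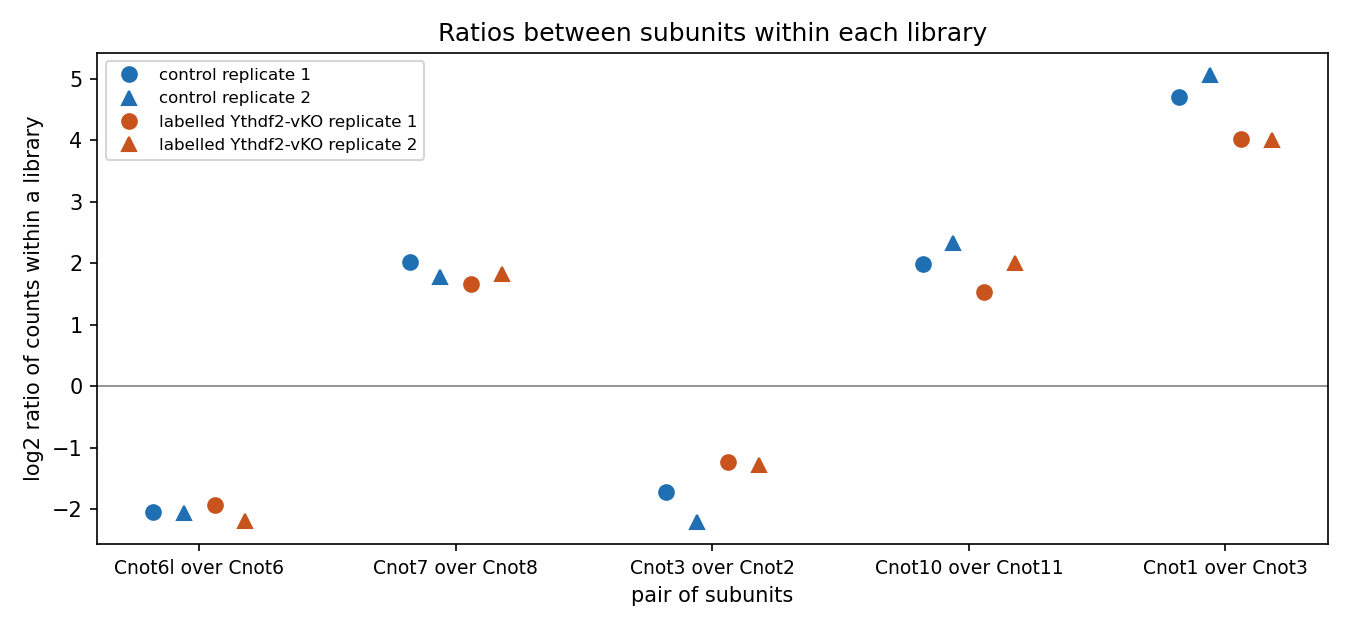
The log2 ratio of the counts of 2 subunits within each library, for 5 pairs; blue points are control and orange points labelled vKO libraries. The groups are apart for Cnot3 over Cnot2 (differing by 0.71) and for Cnot1 over Cnot3 (differing by -0.87), and overlap for the other pairs.

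The genes that varied over the 4 libraries most like Cnot1 were taken by the Euclidean distance between log2 deviations, among 10342 genes of at least 10 CPM. The nearest to Cnot1 were Wdr64 (distance 0.0194, log2 fold change -0.41), Rabgap1l (0.0326, -0.39) and Plcb2 (0.0349, -0.42). The nearest to Cnot3 were Ap5b1 (distance 0.0134, log2 fold change 0.46), Tmem201 (0.027, 0.45) and Sbk1 (0.0282, 0.45). None of these 6 genes passed the adjusted threshold, and 4 libraries make such likeness easy to reach.

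Other proteins around the complex were examined from lists of 43 genes, of which 42 were tested. None was called by edgeR, against 0.393% of all genes. At an unadjusted p under 0.05 there were 5 with higher values in the vKO-labelled libraries and 0 with lower values, against 7.65% and 6.47% of all genes. Whether the lists differ from all genes was not tested. Of the 42, 32 lay above 0, with a median log2 fold change of 0.10, and 50.3% of all genes tested lay above 0. The associated ubiquitin ligase gene Cnot4 had a fitted log2 fold change of -0.23 (SE 0.12; adjusted p 0.43) and Tnks1bp1 of 0.18. The 6 genes of the BTG and TOB family, which bind CNOT7 and CNOT8, were all above 0 with a median of 0.21, and none had an unadjusted p under 0.05.

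Among RNA-binding proteins that bring CCR4-NOT to mRNAs, 12 of 15 lay above 0. Zfp36l2, which binds AU-rich elements, had 10.4 and 9.37 CPM in control libraries against 17.8 and 12.3 CPM in vKO-labelled ones, with a fitted log2 fold change of 0.61 (SE 0.20; adjusted p 0.197). Its relative Zfp36l1 had 29.4 and 20.9 CPM in control libraries and 31.04 and 34.1 CPM in vKO-labelled ones (log2 fold change 0.38, adjusted p 0.34). Ythdf2, described above, was the other gene of that list with an unadjusted p under 0.05. The remaining 2 such genes were Ago1, a miRNA-binding protein (log2 fold change 0.48, SE 0.21, adjusted p 0.317), and Noct, a relative of the CCR4-type nucleases (log2 fold change 0.47, SE 0.16, adjusted p 0.229). The poly(A) nuclease genes Pan2, Pan3 and Parn had log2 fold changes of 0.08, -0.02 and -0.03. The 3 genes of repressors bound by CNOT1, Ddx6, Eif4enif1 and Patl1, had values of -0.15, 0.13 and 0.08.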

How the data were processed

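Testis libraries were grouped by genotype in the labels. The authors deposited raw read counts per gene and library in 1 table, per the file headers. The deposited table also holds a mean normalized count (a signal, counts divided by size factors), log2 fold changes and their standard errors, a Wald score, and p-values with adjusted p-values, per the file headers, whose names are those of DESeq2. HISAT2 2.1.0 and HTSeq 0.6.1p1 are named in the submitters' processing notes, with no role. Strand use and genome build are not given in the sources used here. The deposited mean was recomputed from the counts to within 4.93e-10.

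Counts were tested with edgeR 4.0.16 (limma 3.58.1, R 4.3.3): filterByExpr (21132 genes kept, 4133 left out), TMM scaling, a robust quasi-likelihood fit of genotype, a two-sided F test and Benjamini-Hochberg adjustment over all genes tested. SE is the absolute log2 fold change divided by the square root of F; the prior count was 0.125. CPM are TMM-scaled. Both replicates of a group differed by more than sampling noise (chi-square per degree of freedom 19.4 and 7.84). DESeq2 1.42.0 was an alternative. Lengths, GC content and coordinates came by identifier from GENCODE M21 (GRCm38), which held 25241 of 25265 genes; copies were sought with BLAST+ 2.17.0. GC and length offsets were lowess trends (span 0.3). The fit was tested on simulated data. Intervals cover the fitted error only. Named genes are the members, Ythdf2, listed pathway genes with an unadjusted p under 0.05, and the 3 genes nearest to Cnot1 and to Cnot3. Genes named for list context or overlap were added after their values were seen. The members and lists were chosen with earlier results of these data known.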

Additional observations from a re-analysis of the deposited data

How the results depend on the processing

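With 2 libraries per group, the common biological coefficient of variation was 13.5%. Over 170 member values under the 17 alternatives per gene, 146 kept their direction and side of the threshold, 18 changed sign and 6 came to pass it. Outside the paired and leave-one-out fits the smallest adjusted p of a member was 0.106, so that no member was called there. Cnot1 stayed negative (-0.45 to -0.33, adjusted p 0.00307 to 0.748) and Cnot3 positive (0.25 to 0.68, adjusted p 0.00364 to 0.846) under all 17.

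Both groups use replicate numbers 1 and 2 without a stated meaning. Across genes, the deviations from the group mean were weakly correlated between same-numbered libraries (0.0903), so no pairing was assumed. When the replicate block was fitted anyway, 2 members were called (Cnot1, adjusted p 0.0454, and Cnot3, adjusted p 0.0397) among 1017 genes. With the length offset and the replicate block it was 1 member (Cnot1, adjusted p 0.0479) of 746 genes, and combining the GC offset with the block gave 0 members of 1005, while Ythdf2 then passed the threshold (0.41, adjusted p 0.0124). The fits leaving out a library called 0 to 2 members and 35 to 1512 genes. Over the whole table, against 83 genes, library totals alone called 218, the GC offset 142 and DESeq2 217. Higher genes made up 71.1% of the 83, 83% with library totals, 56.3% with the GC offset, 61.7% with the block, 55.5% with the block and the length offset, 46.6% with the block and the GC offset, and 51.4% without control replicate 2 and 85.7% leaving out vKO-labelled replicate 1.

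The difference in scaffold minus catalytic level moved from -0.02 to -0.27 with the median over subunits, and to 0.0538 without Cnot1 (chosen after seeing the data). Leaving out a library gave -0.0731 to 0.0258. With the GC offset it was computed as -0.19, with or without the replicate block, which overstates the move. The fits with that offset gave -0.34, -0.17, 0.31, -0.16, -0.04 and 0.32 for Cnot1, Cnot2, Cnot3, Cnot9, Cnot10 and Cnot11. For Cnot6, Cnot6l, Cnot7 and Cnot8 they gave 0.05, 0.05, 0.09 and 0.19. The class means of these fits lie closer together than 0.19, so the size of that value is not relied on. Signs turned for genes near 0. With library totals alone the log2 fold changes were 0.0182 for Cnot10, 0.0180 for Cnot6, 0.0124 for Cnot6l and 0.0652 for Cnot7. With the GC offset they were 0.0499 for Cnot6, 0.0513 for Cnot6l and 0.0882 for Cnot7, and with the replicate block added 0.0498, 0.0473 and 0.0878. A filter of 10 counts in every library gave 9.8e-05 for Cnot7. Leave-one-out ranges were -0.13 to 0.0303 for Cnot10, -0.10 to 9.3e-05 for Cnot6, -0.14 to 0.0319 for Cnot6l, -0.0910 to 0.0809 for Cnot7 and -0.0119 to 0.31 for Cnot8. Added after seeing the data, the Cnot6l over Cnot6 difference was 0.0037 with the GC offset and 0.0214 with the length offset, and -0.14 to 0.13 leaving out a library. The fits of Cnot6l and Cnot6 lie closer together than these offset values, at 0.0513 and 0.0499 with the GC offset. With the length offset they were -0.0775 and -0.0812. The cause was not tested.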
